A study of Homo sapiens with 16 samples.

Results

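Keratins and keratin-associated proteins were described in H3K9me2 ChIP-seq of BJ-5ta cells, a line of human fibroblasts immortalised with telomerase. Members were the genes of the table of transcription start site (TSS) windows whose symbol is KRT followed by a number, or KRTAP followed by a family and a member number. This gave 161 genes, 67 KRT and 94 KRTAP, of 63684 genes in the table, and 368 of its 237274 distinct windows of 2000 bp. Wild-type cells and ΔLEO1 cells were grown either in medium with 10% serum or for 10 days in 0.1% serum, the condition in which the study obtained quiescent cells. The ΔLEO1 cells are 1 clone in which CRISPR removed sequence between exons 1 and 2 of LEO1, which encodes a subunit of the RNA polymerase II-associated PAF1 complex, so genotype and clone cannot be told apart. All cells, both genotypes included, came from the same hTERT-immortalised line, and each of the 4 conditions had 2 ChIP libraries and 2 inputs, the sonicated chromatin sequenced without antibody. As antibody the labels give H3 alone, whereas the series design and the methods give H3K9me2.

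A ChIP library, replicate A of ΔLEO1 in 10% serum, was left out because it had 50 reads on the distinct windows and 0 on members. The other 7 ChIP libraries held 1895572 to 3266061 reads over the distinct windows and the 8 inputs 2844483 to 7947289. Members took 0.152% to 0.178% of these reads in ChIP and 0.1% to 0.110% in input. Nothing in the labels says that replicates were separate cultures, so p-values measure the spread between these libraries, which may be technical. No RNA was in the files, so the cell type could not be checked by expression. At the starts of the fibroblast marker genes VIM, COL1A1, COL1A2, COL3A1, PDGFRB and THY1, ChIP was lower than input for 6 of 6, with a median log2 difference of -2.24.

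Keratins are the intermediate filament proteins of epithelial cells. A type I keratin pairs with a type II keratin to form the filament, and the type II genes lie together on chromosome 12 with KRT18, the type I partner of KRT8, at their edge, whereas the other type I genes lie on chromosome 17. KRT8 and KRT18 are the pair of simple epithelia, KRT5 and KRT14 that of the basal layer of the epidermis, KRT1 and KRT10 that of the layers above it, and a further group of keratins builds hair and nail. Keratin-associated proteins are small proteins that cross-link the hair keratins and are grouped by their content of cysteine or of glycine and tyrosine. H3K9me2 is a mark of silent chromatin, deposited mainly by the methyltransferases G9a and GLP, and dermal fibroblasts are mesenchymal cells in which vimentin, not keratin, is the main intermediate filament.

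The start regions of the family carry few CpG dinucleotides and often a TATA box, and 4 of them are shown because they are the ends of the range in the fitted log2 difference of ChIP over input among members whose RefSeq promoter lay within 1 kb of a tested start. Each runs 5′ to 3′ on the strand of the gene from 250 bases before to 50 after the RefSeq start (GRCh38.p14), and capitals mark CG. The differences ranked here are those of the single start windows. KRT38, a hair keratin (chr17:41440934-41441233, minus strand), had the highest difference of the KRT genes and KRT85, another hair keratin (chr12:52367432-52367731, minus strand), the lowest. The KRT85 start window was not called (-0.33, adjusted p = 0.170, edgeR), and 2 other KRT85 windows were called higher. KRT15, KRT16, KRT17 and KRT18 had no promoter in this set. KRTAP24-1 (chr21:30282901-30283200, minus strand) had the highest and KRTAP10-6 (chr21:44592456-44592755, minus strand) the lowest of the KRTAP genes.
KRT38: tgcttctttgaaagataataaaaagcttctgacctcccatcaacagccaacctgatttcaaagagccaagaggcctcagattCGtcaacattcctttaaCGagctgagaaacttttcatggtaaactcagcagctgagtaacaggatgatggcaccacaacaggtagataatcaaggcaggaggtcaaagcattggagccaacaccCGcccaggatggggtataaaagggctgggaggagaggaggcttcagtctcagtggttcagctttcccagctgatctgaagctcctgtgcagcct
KRT85: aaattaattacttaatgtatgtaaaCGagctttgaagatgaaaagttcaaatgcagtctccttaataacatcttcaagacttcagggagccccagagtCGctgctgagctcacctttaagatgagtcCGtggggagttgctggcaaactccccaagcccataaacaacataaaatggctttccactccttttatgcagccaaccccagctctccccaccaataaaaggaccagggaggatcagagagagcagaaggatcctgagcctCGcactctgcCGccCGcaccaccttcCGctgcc
KRTAP24-1: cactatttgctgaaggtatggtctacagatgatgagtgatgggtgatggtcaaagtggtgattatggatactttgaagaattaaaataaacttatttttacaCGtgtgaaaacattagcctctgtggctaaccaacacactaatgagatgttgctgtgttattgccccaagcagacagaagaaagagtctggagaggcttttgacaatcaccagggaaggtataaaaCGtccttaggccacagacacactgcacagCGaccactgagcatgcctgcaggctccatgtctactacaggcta
KRTAP10-6: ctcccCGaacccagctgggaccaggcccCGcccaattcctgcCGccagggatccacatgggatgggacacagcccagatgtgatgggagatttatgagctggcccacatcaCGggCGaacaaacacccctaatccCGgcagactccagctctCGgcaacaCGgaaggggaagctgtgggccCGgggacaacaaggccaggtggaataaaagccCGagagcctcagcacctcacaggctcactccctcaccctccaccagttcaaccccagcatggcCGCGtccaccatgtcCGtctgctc
The CG count was 3 in KRT38, 7 in KRT85, 3 in KRTAP24-1 and 13 in KRTAP10-6, and the last was the highest count of any member. The letters TATAAA stood on the sense strand 30 bases before the start in KRT38 and KRTAP24-1 and not between 20 and 40 bases before it in the other pair.

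Of the members, 114 had a RefSeq promoter (34 KRT and 80 KRTAP). Their median was 2 CG per 300 bases, against 14 over all 35116 promoters of the table, and their median GC content was 43.7% against 58.7%. TATAAA was found on either strand in 84 (73.7%), against 11.5% of all promoters. It was in 64 of 80 KRTAP promoters (80%) and in 20 of 34 KRT promoters (58.8%). On the sense strand between 20 and 40 bases before the start it was found in 49 (43.0%), at a median of 30 bases before the start, against 2.30% of all promoters. A match is a description of these letters only. Of the 80 promoters within 1 kb of a tested start, the 34 with TATAAA at that distance had a median ChIP over input ratio of 1.51 and the 46 without it 1.46. Across these 80 promoters, which share libraries and neighbourhoods, the CG count and the log2 ChIP over input difference had r = -0.42 and rho = -0.27. The CG count and the input level had r = -0.35 over the same promoters, so the input moved with base composition too.

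Not every member could be measured. Of the 161, 33 had 0 reads in all 8 inputs and in the ChIP libraries and are given no ratio, 10 KRT and 23 KRTAP. They were all 6 KRTAP5 genes at chr11:1584283-1698195 (KRTAP5-1 among them), and on chromosome 17 genes from KRT12 to KRT37, among them KRT20, KRT23, KRT31, KRTAP1-5 and KRTAP2-3, with measured KRTAP4 and KRTAP9 genes in between. Of the 39 members that also have a window on a contig other than the chromosomes, 31 were at 0 on their chromosome windows (79.5%), against 2 of the 122 members without one (1.64%). Over all genes these shares were 44.2% of 2338 and 2.51% of 59451. All 67 member windows on such contigs were at 0. How reads that matched more than 1 place were treated is not given in the sources used here, and the part of that step in these zeros was not tested. A further 9 members, among them KRT34 with 5 input and 7 ChIP reads, had too few reads for the test. Near-identical copies are common in both families (KRT6A, KRT6B and KRT6C, the KRT81 to KRT86 group, the KRTAP4, KRTAP9 and KRTAP10 genes), so the split of reads among copies is uncertain.

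The first comparison asked how much of the mark the family carries. Levels are normalised read counts (CPM) per window, scaled by trimmed mean of M-values (TMM) factors over the 15 libraries. Fold changes are log2 from edgeR's quasi-likelihood test on reads summed over each gene's distinct windows. Windows of a gene that overlap were not merged, so a read in several of them was counted once for each. A gene was called at a Benjamini-Hochberg adjusted p-value under 0.05 over all genes tested. ChIP over input is the mean of the differences in the 4 conditions. Such values are relative to the typical gene and cannot show a shift of the mark at all genes, nor tell a higher level in every cell from a mark in more of the cells.

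The family was mostly higher in ChIP than in input. Of 119 members tested, 89 were called (background 73.1% of all genes), 78 of them higher (background 39.3%) and 11 lower (background 33.8%), and 30 were not called. The median log2 difference was 0.52, against 0.13 over all genes tested, and the middle of the members ran from 0.20 to 0.77, against -0.71 to 0.64 for all genes. Scaled instead to reads in peak regions, 0 members were called higher and 118 of 120 lower, with a median of -1.05 for members and -1.42 for all genes, so each direction below is relative to the typical gene. All 7 ChIP libraries lay above all 8 inputs for 31 of the 119 (26.1%, background 14.7%). For 1 member, KRT15, named after its values were seen, all 7 lay below all 8 (0.840%, background 20.4%). KRTAP genes had 43 higher and 3 lower of 63 (median 0.59), and KRT genes 35 higher and 8 lower of 56 (median 0.38). Of the higher KRTAP genes, 31 lay in the first cluster of chromosome 21, where 33 were tested. The backgrounds of 39.3% higher and 33.8% lower hold for each group of members below.

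**Figure D1:**
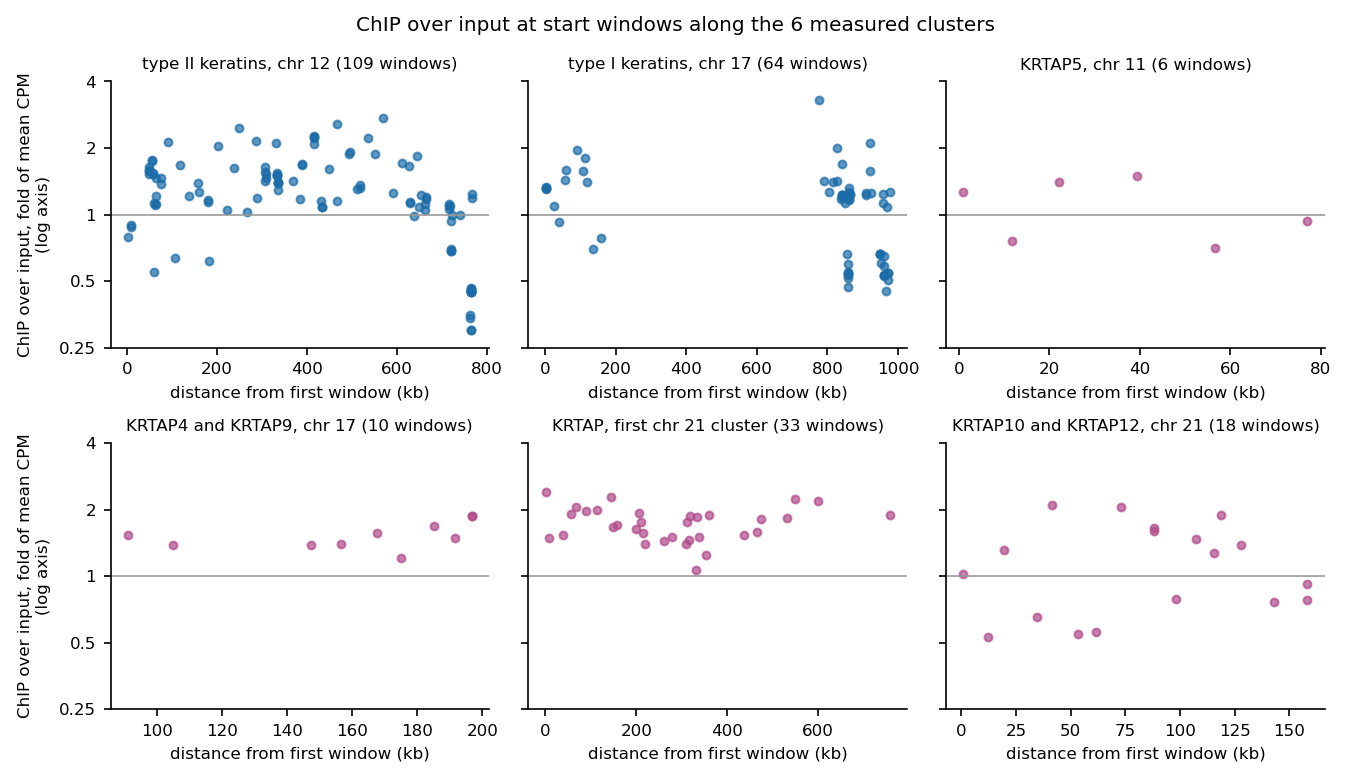
Ratio of mean ChIP CPM (7 libraries) to mean input CPM (8 libraries) at each tested start window, on a log axis relative to the typical gene, against distance from the first window of the cluster in kb, for the 6 clusters with input reads. The first KRTAP cluster of chromosome 21 lies above 1 almost throughout, and in the KRT clusters groups of starts lie below 1, the lowest at KRT18 with 0.30.

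Of the 4 keratins of simple epithelia, 1 was higher and 2 were lower, with a median of -0.18. The lower ones were KRT8 and KRT18, which share reads. By condition the medians of the 4 were -0.48 in wild-type 10% and 0.27 in wild-type 0.1%. In ΔLEO1 they were -0.53 in 10% (1 ChIP library) and -0.11 in 0.1%. In wild-type 10%, 2 were called lower (background 27.3%) and 0 higher (29.7%). In wild-type 0.1%, 0 were lower (23.9%) and 2 higher (20.1%), and in ΔLEO1 0.1% 0 were lower (23.8%) or higher (19.7%). KRT18 (chr12:52947871-52952742, 7 windows) had 2.74 and 2.45 CPM per window in wild-type 10% ChIP replicates A and B, 2.36 in ΔLEO1 10% replicate B, 4.17 and 4.41 in wild-type 0.1% and 4.13 and 2.64 in ΔLEO1 0.1%. Its inputs ran from 3.38 through a median of 5.61 to 7.24 CPM, so the groups overlapped at their edges only. The log2 difference was -0.82 ± 0.15 (SE, adjusted p = 4.32e-05, edgeR). KRT8 (chr12:52900867-52950954, 18 windows) had 3.75, 2.71, 2.65, 4.28, 5.31, 4.71 and 2.90 CPM in the same ChIP order and inputs of 4.22, 5.53 and 6.45 (lowest, median, highest). Its log2 difference was -0.59 ± 0.13 (adjusted p = 0.000225), but 0.0021 when each gene was represented by its 1 window of lowest start coordinate, which in KRT8 lies at its far end. KRT7, a simple keratin of ducts and glands, was higher at 0.35 ± 0.10 (adjusted p = 0.00396), a call lost with DESeq2 (0.26, adjusted p = 0.0550) and with the nearly empty library kept (0.21, adjusted p = 0.330). KRT19, of simple and ductal epithelia, was not called at 0.24 ± 0.12 (adjusted p = 0.0833), and was called without ΔLEO1 10% input replicate B (0.29, adjusted p = 0.0471) or ΔLEO1 0.1% input replicate B (0.30, adjusted p = 0.0427).

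KRT8 and KRT18 are transcribed in opposite directions, and 8 KRT8 starts share a start region with KRT18, where the low level lay. The RefSeq promoter of KRT8 (chr12:52926420-52926719) lay outside that region. In the window at that start ChIP was 5.17 and input 5.21 CPM, with a log2 difference of -0.049 (adjusted p = 0.743, single-window edgeR test). The 5 KRT18 starts from 52948871 to 52949805 had mean ChIP levels of 1.63 to 2.67 CPM against inputs of 5.26 to 5.80, ratios of 0.30 to 0.46. The 8 KRT8 starts from 52949776 to 52949954, whose windows overlap those of KRT18 and share their reads, had ratios of 0.445 to 0.467. Inside KRT18, at starts 52951496 and 52951742, ChIP was 6.64 ± 2.58 and 6.68 ± 2.03 CPM (SD, n = 7) and the ratios were 1.24 and 1.19. At the other end of KRT8, starts from 52901867 to 52903648 had ratios of 1.06 to 1.12. The single-window test called 2 KRT18 windows higher and 5 lower, and 4 KRT8 windows higher and 8 lower, on a scale centred on windows instead of genes.

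**Figure D2:**
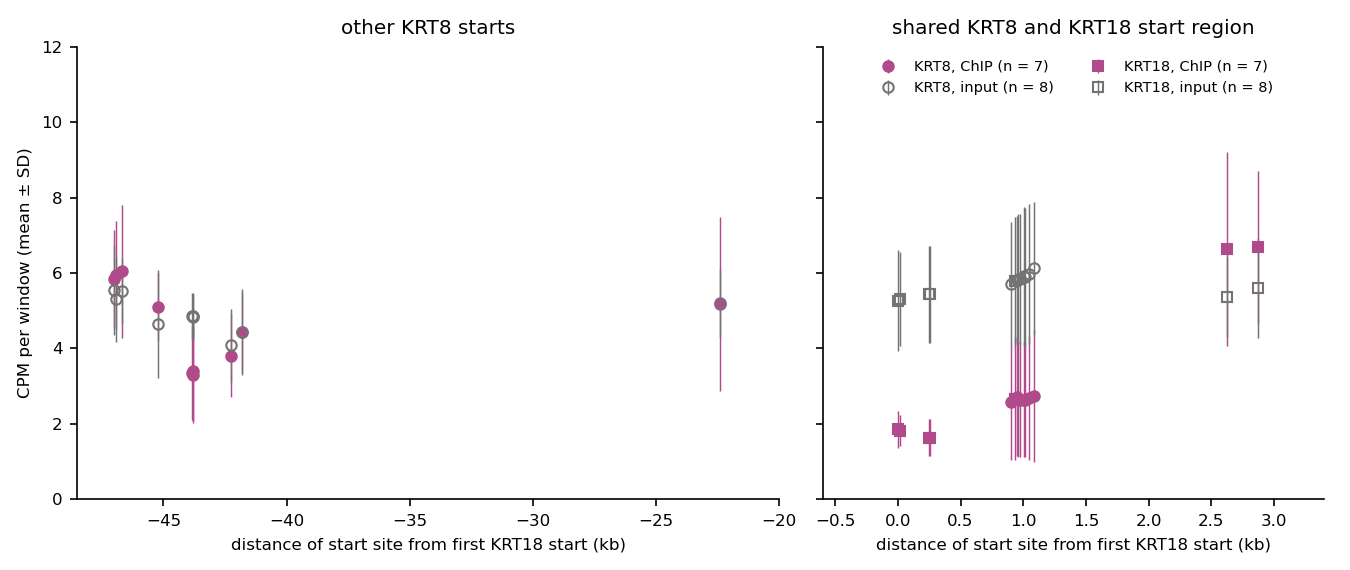
Mean CPM per window, with SD bars, at each tested start of KRT8 and KRT18 in ChIP (filled, n = 7) and input (open, n = 8), against distance in kb from the first KRT18 start. In the shared start region ChIP lies at 1.63 to 2.74 CPM and input at 5.26 to 6.13, while the KRT18 starts further downstream have ChIP at 6.64 and 6.68 CPM.

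Such a mixture was found within other keratins as well. Of 36 members with 2 or more windows tested, 5 had windows called in both directions: KRT7, KRT8, KRT17, KRT18 and the pseudogene KRT42P, named here because both directions were seen. That is 13.9% of these members, against 23.6% of all 22604 genes with 2 or more windows tested. Over all 240 member windows tested, 165 were called higher (background 36.5%) and 31 lower (background 38.6%). In KRT7 the window at start 52238719 had 9.12 ± 1.26 CPM in ChIP and 5.15 ± 0.673 in input (ratio 1.77), and that at 52244378 had 4.07 ± 2.23 and 7.38 ± 1.56 (ratio 0.551). KRT17, a keratin of stressed and appendage epithelium, ranged from 0.525 to 1.24. In KRT5 9 of 9 windows were higher, with ratios of 1.29 to 2.10. In KRT19, not called as a gene in the main fit, 7 of 7 were higher, with ratios of 1.16 to 1.32. With library totals without TMM, KRT19 was called higher as a gene (0.50, adjusted p = 0.000738, edgeR). The median of all genes in that fit was 0.37. Many windows of a gene overlap and share reads, so counts of windows are not counts of separate observations.

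Epidermal keratins were higher in ChIP for 6 of 8, with KRT15 lower (median 0.48). KRT1 (chr12:52676517-52681407) had 8.38, 9.92, 13.4, 7.52, 9.98, 7.77 and 8.44 CPM in the ChIP order above, every one over its highest input of 5.73. Its log2 difference was 0.93 ± 0.13 (adjusted p = 9.72e-07). Its partner KRT10 (chr17:40821614-40823614) had 4.39, 2.35, 3.89, 3.99, 3.01, 4.09 and 5.23 CPM in ChIP and inputs of 3.97, 5.03 and 5.73, and was not called at -0.34 ± 0.18 (adjusted p = 0.0880). KRT10 was called lower with 1 window per gene (-0.42, adjusted p = 0.0455) and with the nearly empty library kept (-0.43, adjusted p = 0.0394). In the single-window test the KRT10 start window had 0.016 (adjusted p = 0.947). Without wild-type 10% ChIP replicate A it was called lower (-0.45, adjusted p = 0.0364). Of the basal pair, KRT5 was higher at 0.58 ± 0.12 (adjusted p = 0.000106), with ChIP at 4.86 to 9.11 CPM and inputs at 3.57 to 5.45. KRT14 was higher at 0.68 ± 0.16 (adjusted p = 0.000590), with ChIP at 6.12 to 8.39 CPM, every library over the highest input of 5.33. KRT15, a basal keratin, had 3.90, 3.59, 1.73, 4.09, 3.60, 4.48 and 2.77 CPM in ChIP against inputs of 4.50, 5.65 and 7.17. The highest ChIP library thus lay just under the lowest input, and the log2 difference was -0.87 ± 0.14 (adjusted p = 5.9e-06), or -0.15 (adjusted p = 0.473) with 1 window per gene.

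Keratins of barrier, mucosal and stressed epithelium were split, 5 higher and 2 lower of 11 (median 0.28). KRT3 of the cornea (0.71), KRT6C (0.71), KRT6A (0.58), KRT13 (0.32) and KRT4 (0.30) were higher, and KRT16 and KRT17, induced in wounded skin, were lower at -0.66 ± 0.20 (adjusted p = 0.00522) and -0.61. The KRT16 call was lost without ΔLEO1 10% input replicate B (-0.45, adjusted p = 0.0656). The KRT16 call was also lost with library totals without TMM (-0.41, adjusted p = 0.0675, edgeR). In the single-window test 0 of the 4 KRT16 windows were called. Root sheath and companion layer keratins, which line the growing hair, had 7 higher and 1 lower of 9 (median 0.68). KRT75 of the companion layer had 11.2, 8.07, 10.7, 9.82, 7.91, 11.5 and 9.65 CPM in ChIP, every library over the highest input of 5.21, and a log2 difference of 1.17 ± 0.16 (adjusted p = 6.41e-07). KRT25 of the inner root sheath had a log2 difference of 0.92 ± 0.16 (adjusted p = 1.38e-05), and KRT28 of the same layer was lower at -0.44. In the single-window test, centred on windows instead of genes, the KRT28 start window was not called (-0.091, adjusted p = 0.693, edgeR).

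Hair keratins held both the highest member and several near 0. KRT38 (chr17:41439983-41441983, 1 window) had 20, 20.8, 19.5, 19, 16.9, 15 and 18.5 CPM in ChIP, from 40 to 62 reads a library, against inputs of 3.82, 5.44 and 7.22. Its 7 ChIP libraries stood far apart from its inputs, with a ratio of means of 3.31 and a log2 difference of 1.62 ± 0.15 (adjusted p = 1.19e-09), the largest of the 119. The type I hair keratins had 3 higher and 0 lower of 4 (median 0.57) and the type II hair keratins 2 higher and 0 lower of 6 (median 0.12), among them KRT84 at 0.95 and KRT86 at 0.80. KRT81 had -0.58 (adjusted p = 0.0504) with 1.01 to 3.82 CPM in ChIP and 0.764 to 4.67 in input. It was called lower in 5 of the fits that leave out 1 library (-0.64 to -0.72), those without ΔLEO1 10% ChIP replicate B, ΔLEO1 0.1% ChIP replicate A, wild-type 10% input replicate B, ΔLEO1 10% input replicate A or ΔLEO1 0.1% input replicate B. It was also called lower with the replicate block (-0.58, adjusted p = 0.0495), with no filter (-0.59, adjusted p = 0.0439), with 1 window per gene (-0.65, adjusted p = 0.0189) and with the nearly empty library kept (-0.65, adjusted p = 0.0130). KRT81 has 1 chromosome window, so its own reads are the same with 1 window per gene. Members that RefSeq lists as pseudogenes had 9 higher and 1 lower of 11 (median 0.56), led by KRT127P at 1.31 ± 0.14 (adjusted p = 1.48e-08), with 9.24 to 13.3 CPM in ChIP and 3.04 to 4.68 in input.

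Among the keratin-associated proteins the first cluster of chromosome 21 (chr21:30281950-31039476), with KRTAP24-1, KRTAP13 and KRTAP19 genes, was the most uniform. Of its 33 genes, 31 were higher and 0 lower (median 0.75), and the exceptions were KRTAP6-1 at -0.009 ± 0.13 (adjusted p = 0.955) and KRTAP20-2 at 0.27 ± 0.20 (adjusted p = 0.232). KRTAP24-1 had 12, 11.4, 14.6, 11.7, 11.3, 7.91 and 10.1 CPM in ChIP and inputs of 3.44, 4.69 and 6.25, with no overlap, and a log2 difference of 1.19 ± 0.14 (adjusted p = 4.72e-08). KRTAP13-3 followed at 1.17 ± 0.14 (adjusted p = 1.79e-07). The panel genes KRTAP13-1, a high sulfur protein, and KRTAP19-1, a glycine- and tyrosine-rich protein, were higher at 0.93 ± 0.17 (adjusted p = 4.48e-05) and 0.74 ± 0.15 (adjusted p = 0.000119). The tested high glycine-tyrosine genes, all of them in this cluster, had 20 higher and 0 lower of 22 (median 0.69).

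The other KRTAP clusters were more mixed. In the second of chromosome 21, that of chromosome 17 and the measured one of chromosome 11, 37.5%, 44.4% and 40% were higher. These shares were near the background of 39.3% of all genes. In the second cluster of chromosome 21 (chr21:44539195-44698427), home of the KRTAP10 and KRTAP12 genes, 6 were higher and 3 lower of 16 (median 0.12). KRTAP10-8 and KRTAP12-3 were both higher at 0.87, with SE of 0.18 and 0.14 (adjusted p = 0.000173 and 9.32e-06). KRTAP10-2 was lower at -0.98 ± 0.21 (adjusted p = 0.000281), and KRTAP10-6 at -1.11 ± 0.27 (adjusted p = 0.000774) with only 34 ChIP reads and 0 of them in ΔLEO1 10% replicate B. Without that library KRTAP10-6 was no longer called (-0.46, adjusted p = 0.0763). KRTAP10-1 was not called at -0.061 ± 0.22 (adjusted p = 0.810). It had 0 reads in ΔLEO1 0.1% ChIP replicate B and was called lower without ΔLEO1 0.1% ChIP replicate A (-0.67, adjusted p = 0.0132). Over both chromosome 21 clusters the tested high sulfur genes had 17 higher and 3 lower of 27 (median 0.65).

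The ultrahigh sulfur group of chromosomes 11 and 17 had 6 higher and 0 lower of 14 (median 0.41). In the measured part of the chromosome 17 KRTAP cluster (chr17:40993164-41316710), 4 were higher and 0 lower of 9, led by KRTAP9-1 at 0.87 ± 0.15 (adjusted p = 1.43e-05) and KRTAP4-2 at 0.66 ± 0.15 (adjusted p = 0.000521). KRTAP4-8 and KRTAP4-3 had 0.084 and 0.035 and were called higher only without ΔLEO1 10% ChIP replicate B (0.68 and 0.47, adjusted p = 0.0310 and 0.0106), in which both had their lowest ChIP level, 0.486 and 1.95 CPM. At chr11:71526267-71604353, KRTAP5-10 and KRTAP5-9 were higher at 0.59 ± 0.19 (adjusted p = 0.0077) and 0.46 ± 0.17 (adjusted p = 0.0172). The first call was lost without wild-type 0.1% ChIP replicate A (0.41, adjusted p = 0.0998) and the second without wild-type 10% ChIP replicate A (0.38, adjusted p = 0.0682) or with the nearly empty library kept (0.36, adjusted p = 0.0538). DESeq2 called neither (adjusted p = 0.130 and 0.195). KRTAP5-8 and KRTAP5-11 had -0.29 and -0.30 (adjusted p = 0.158 and 0.081). KRTAP5-8 was called lower without ΔLEO1 10% ChIP replicate B (-0.44, adjusted p = 0.0415), and KRTAP5-11 without ΔLEO1 0.1% ChIP replicate A (-0.43, adjusted p = 0.0208) or ΔLEO1 0.1% input replicate B (-0.35, adjusted p = 0.0497).

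The surroundings of the clusters differed. Genes within 500 kb outside the chromosome 12 KRT cluster had a median of -0.98, with 6 higher and 37 lower of 51, whereas the members had 0.43 with 23 higher and 3 lower of 34. The other genes inside that cluster had 0.24, with 8 higher and 2 lower of 20. Around the chromosome 17 KRT cluster the neighbours had -1.03, with 4 higher and 35 lower of 51, and the members 0.32 with 12 higher and 5 lower of 22. The other genes inside it had -0.020, with 4 higher and 2 lower of 11. Around the KRTAP10 cluster the neighbours had -0.61 and the members 0.12. The first KRTAP cluster of chromosome 21 did not stand out from its neighbours: 10 of 10 genes outside it were higher with a median of 0.92, and 11 of 11 other genes inside it were higher with a median of 0.82. These are counts and medians over genes, with no test of the difference.

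Counts for other gene families are set beside these, with no test of a difference. The LCE and SPRR genes of the cornified envelope had 20 higher and 0 lower of 29 (median 0.61), and the olfactory receptor genes of chromosome 11 had 119 higher and 7 lower of 157 (median 0.69). Intermediate filament genes outside the keratins had 5 higher and 8 lower of 15 (median -0.28), with VIM at -3.65, NES at -2.82 and LMNA at -1.86, and with the neuronal NEFM at 1.61 and INA at 0.99. Desmosome and linker genes, whose products anchor keratin filaments, had 8 higher and 6 lower of 16, from DSG2 at 1.19 and DSC2 at 1.10 to JUP at -1.10 and PLEC at -1.99.

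**Figure D3:**
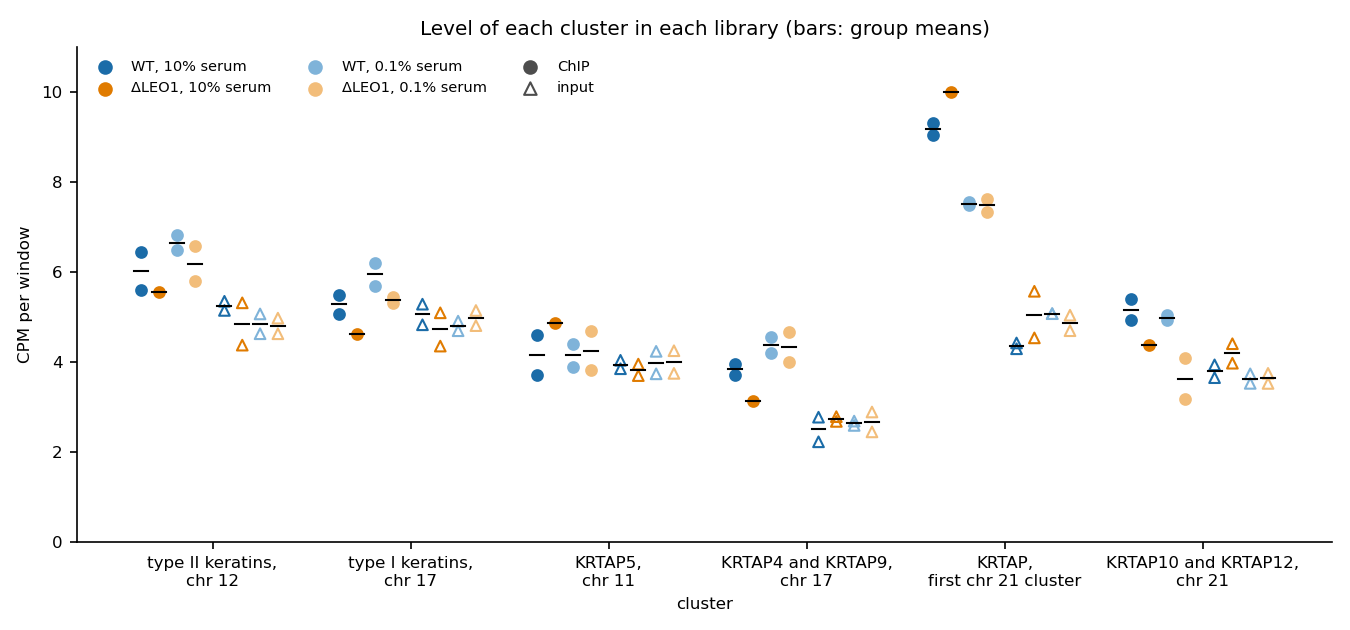
CPM per window over each measured cluster, windows at 0 in all inputs left out, for each ChIP library (filled circles) and input (open triangles), coloured by genotype and serum, with bars for group means. The first chromosome 21 cluster has ChIP levels of 7.33 to 10.0 against inputs of 4.29 to 5.57, the widest gap of the 6.

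By condition, the first chromosome 21 cluster had 9.17 ± 0.196 CPM per window (SD, n = 2) in wild-type 10% ChIP against 4.35 in input, a ratio of 2.11. In wild-type 0.1% it had 7.51 ± 0.0413 against 5.07, a ratio of 1.48. The ΔLEO1 values were 10.0 (1 library) and 7.48 ± 0.208, ratios of 1.98 and 1.54. Both genotypes thus had a lower level of this cluster in 0.1% serum. Its neighbours within 500 kb moved the same way, with ChIP at 10.5 ± 0.332 and 7.76 ± 0.650 CPM in wild type. The spread of ChIP over input over all genes was also narrower in low serum, with quartiles of -0.81 and 0.78 in wild-type 10% and of -0.67 and 0.57 in wild-type 0.1%, and the part of this in the cluster's values was not tested. In wild type the KRT clusters went the other way. The chromosome 12 cluster had 6.02 ± 0.601 in wild-type 10% and 6.64 ± 0.237 in wild-type 0.1% (ratios 1.15 and 1.37), and the chromosome 17 KRT cluster 5.28 ± 0.290 and 5.94 ± 0.366 (ratios 1.04 and 1.24). Of 56 KRT genes tested by condition, 6 were called lower in wild-type 10% (background 27.3%) and 0 in wild-type 0.1% (23.9%). In ΔLEO1 0.1% 1 was called lower (23.8%). With 2 libraries a group, sums over clusters were given no test.

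The second comparison asked whether loss of LEO1 changed the mark in quiescent cells, with 2 ChIP libraries a group. Of 116 members tested, edgeR called 0 (background 0.0113%, which is 6 genes, all lower), 7 had an unadjusted p-value under 0.05, and DESeq2 called 0 with 1 under 0.05. The median log2 difference, ΔLEO1 minus wild type, was -0.093, against -0.006 over all genes. Both ΔLEO1 libraries lay above both wild-type libraries for 20 of the members (17.2%, background 20.1%) and below both for 24 (20.7%, background 21.1%).

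The smallest p-value was at KRTAP10-5 (chr21:44579604-44581604), a high sulfur hair protein. It had 12 and 10.5 CPM in wild-type 0.1% ChIP (39 and 28 reads) and 4.36 and 3.22 in ΔLEO1 0.1% ChIP (16 and 8 reads). The groups did not overlap, and the 0.1% inputs gave 3.82 and 3.60 CPM in wild type and 1.87 and 5.50 in ΔLEO1. The log2 difference was -1.39 ± 0.30 (unadjusted p = 0.000323, adjusted p = 0.144). It was called with 1 window per gene (-1.37, adjusted p = 0.00486) and with the nearly empty library kept (-1.36, adjusted p = 0.0442). KRTAP10-5 has 1 chromosome window, so the first of these fits used the same reads for it. Without 1 library at a time the adjusted p-value ran from 0.141 to 0.403. In 10% serum the levels were 11.6 and 7.06 in wild type and 7.30 in the 1 ΔLEO1 library. A peak region at chr21:44578648-44580261, annotated at the end of this gene and overlapping the window, so that they share reads, had -0.96 ± 0.31 (adjusted p = 0.244).

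Of the 13 tested members of that cluster, KRTAP10-5 included, 11 had negative differences, with a median of -0.40. Of the other 12, 10 had negative differences, with a median of -0.29, and 0 had an unadjusted p under 0.05. Without KRTAP10-5, a choice made after its values were seen, the cluster had 4.61 ± 0.0108 CPM per window in wild-type 0.1% ChIP and 3.61 ± 0.629 in ΔLEO1 0.1%. The 51 measured genes within 500 kb outside it had 2.74 ± 0.223 and 2.27 ± 0.0883 in the same groups, and the 3 other genes inside it 3.8 ± 0.164 and 3.01 ± 1.07 (SD, 2 libraries a group), so mean levels were lower in ΔLEO1 around its KRTAP genes too, with no test of these levels. The medians of the other clusters lay between -0.13 and -0.012. Next in order of p-value among the negative differences, the hair keratins KRT85 and KRT83 had -0.76 ± 0.30 and -0.74 ± 0.33 (adjusted p = 0.421 and 0.473). With positive differences, KRT25 had 0.63 ± 0.27, the pseudogene KRT90P 0.63 ± 0.28 and KRTAP15-1 0.59 ± 0.25 (adjusted p = 0.456, 0.473 and 0.444). KRT25 had 8.29 and 7.53 CPM in wild type and 12 and 13.7 in ΔLEO1, and KRT85 had 4.30 and 6.65 against 3.36 and 2.81, so in both the groups did not overlap.

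The third comparison asked what serum withdrawal did in wild-type cells. It shares the wild-type 0.1% ChIP libraries with the comparison of genotypes. Of 116 members, edgeR called 0 (background 0%), 10 had an unadjusted p-value under 0.05, and DESeq2 called 0 with 3 under 0.05. The median difference, 0.1% minus 10% serum, was 0.021, against -0.0014 over all genes. Both 0.1% libraries lay above both 10% libraries for 18 members (15.5%, background 17.1%) and below both for 23 (19.8%, background 23.7%). In the first chromosome 21 cluster 26 of 33 differences were negative (median -0.20), and in the chromosome 17 KRTAP cluster 8 of 9 were positive (median 0.27).

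The simple epithelial keratins had positive differences in 4 of 4 (median 0.65), none called. KRT8 and KRT18 among them share reads, so these are not 4 separate observations. Over all genes 26404 of 52966 differences were positive. KRT19 had 4.28 and 5.33 CPM in 10% serum and 7.15 and 7.96 in 0.1% (0.68 ± 0.22, adjusted p = 0.396). KRT5 had 6.43 and 4.86 against 9.11 and 7.70 (0.62 ± 0.21, adjusted p = 0.417), and KRTAP4-4 4.39 and 4.71 against 9.82 and 7.91 (0.91 ± 0.30, adjusted p = 0.403). In these 3 genes, named for their small p-values, the groups did not overlap. With negative differences, KRTAP22-1 had 9.58 and 11.1 against 3.68 and 7.91 (-0.77 ± 0.30, adjusted p = 0.492), KRTAP19-8 had -0.68 ± 0.27 (adjusted p = 0.487) and KRTAP21-3 had -0.63 ± 0.27 (adjusted p = 0.524).

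**Figure D4:**
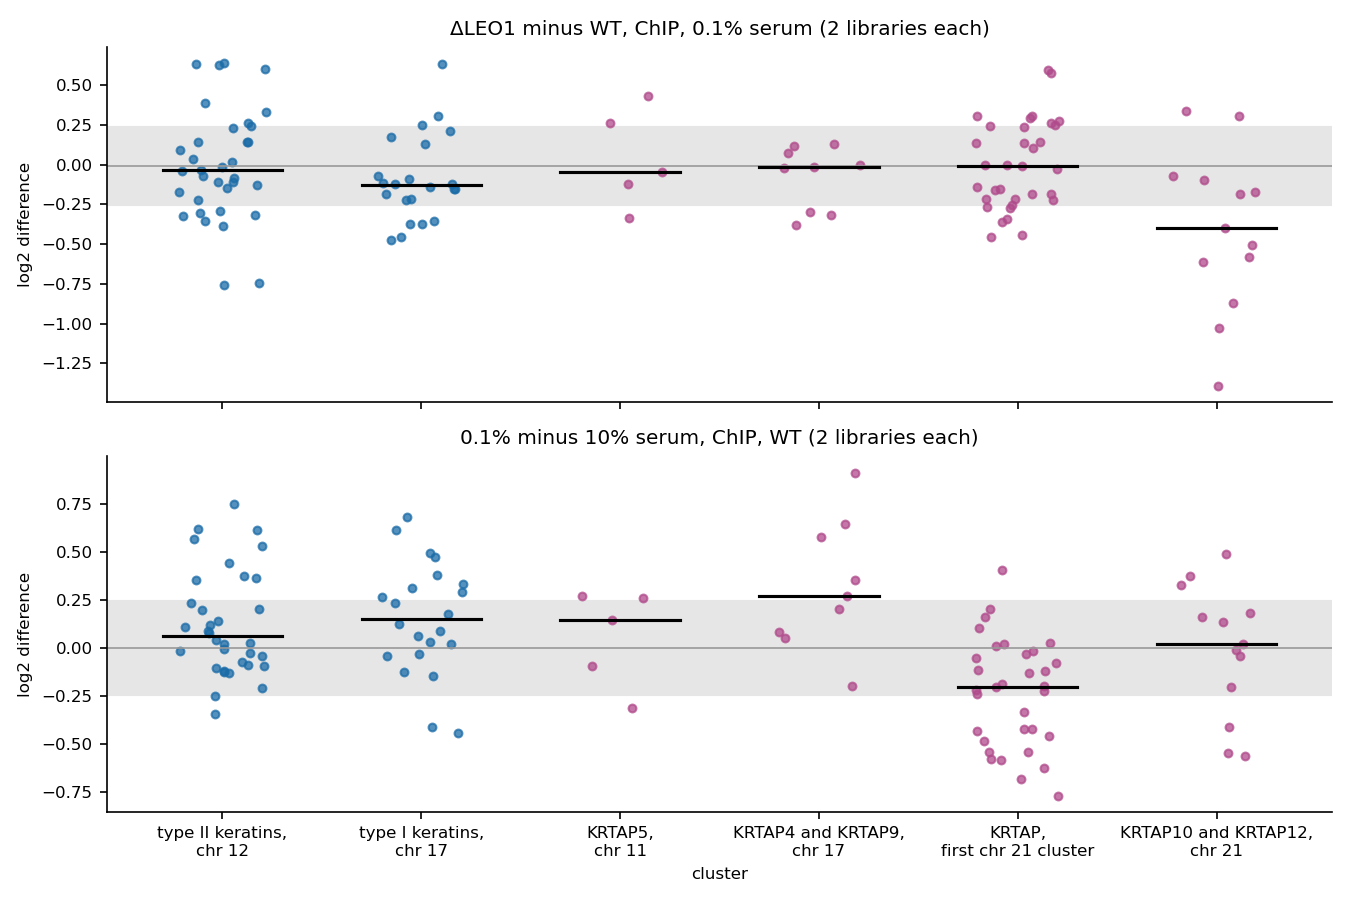
Log2 difference of each tested member, relative to the typical gene, for ΔLEO1 minus wild type in 0.1% serum and for 0.1% minus 10% serum in wild-type ChIP, by cluster. No point passes the adjusted threshold, and KRTAP10-5 is the lowest at -1.39 in the comparison of genotypes.

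Contrasts with ΔLEO1 in 10% serum rest on 1 ChIP library, which is assumed to vary like the other groups. For ΔLEO1 against wild type in 10% serum, edgeR called 0 members (background 0.00378%) with 8 under an unadjusted 0.05, and DESeq2 called 0 with 1 under it. For serum withdrawal in ΔLEO1, edgeR called 0 (background 0.00189%) with 14 under 0.05, and DESeq2 called 0 with 2 under it. By p-value, KRT80, KRT15 and KRTAP4-3 led the negative differences of the first and the positive ones of the second, with -1.20, -1.08 and -1.37 in the first and 1.54, 1.09 and 1.5 in the second. Their levels were lowest in the shared library, for example 1.95 CPM for KRT80 against 3.99 to 6.57 in the other 6. The interaction of genotype and serum gave 0 calls (background 0%) with 5 members under 0.05. In the inputs, edgeR and DESeq2 both called 0 members for genotype in 0.1% serum (background 0%), each with 0 under an unadjusted 0.05. For serum in wild type, they called 0 (background 0.00174%), with 4 under 0.05 by edgeR and 2 by DESeq2.

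Of the 16092 peak regions, 17 lay in the clusters, whose spans add up to 3177 kb. No density of peak regions over the genome was set beside this count. There were 9 in the chromosome 12 cluster, 3 in the chromosome 17 KRT cluster, 2 in the first and 3 in the second chromosome 21 cluster, and 0 in the others. The region at chr17:41440155-41441184 lies in exon 1 of KRT38, within the window that had the highest ratio, and held 214 ChIP and 124 input reads. For ΔLEO1 against wild type in 0.1% serum, edgeR called 0 of the 17 (background 0.0621%) with 2 under an unadjusted 0.05, and DESeq2 called 0 with 1 under it. The other of these, besides that at KRTAP10-5, was an intergenic region upstream of KRT24 at chr17:40715189-40716043 with 1.04 ± 0.40.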

How the data were processed

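H3K9me2 ChIP and input DNA were sequenced from wild-type and ΔLEO1 BJ-5ta cells in 10% and 0.1% serum. The authors deposited raw counts of reads, not scaled, over 2000 bp windows centred on annotated starts and over 16092 merged peak regions. Per the methods of the study, csaw counted the signals and scaling used spike-in chromatin, which the count tables do not carry and which was not used here. The submitters' processing notes list hg38, dm6, bcl2fastq 2.20.0.422, STAR 2.7.10a and HOMER with no roles. The peak caller's settings and the handling of duplicates and of reads with several matches are not given in the sources used here. Every per-library column was used or assigned, and ΔLEO1 10% serum ChIP replicate A (50 reads) was left out of the main fits.

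Windows with repeated coordinates were taken once, overlapping windows were not merged, and windows were summed per gene. Genes were kept by filterByExpr (minimum count 10) and tested with edgeR 4.0.16 in R 4.3.3, by the two-sided quasi-likelihood F-test with TMM factors, a prior count of 2 and Benjamini-Hochberg adjustment over all genes. Library size was the total over distinct windows. ChIP over input was fitted on 15 libraries, genotype and serum on 7 ChIP libraries and, as background, on 8 inputs. SE were derived from the F statistic. Alternatives were library totals without TMM, no filter, the replicate letter as a block, 1 window per gene (the window of lowest start coordinate), peak table totals, the nearly empty library kept, single windows, input differences taken off, DESeq2 1.42.0 and leaving out each library in turn. The code was tested on simulated data.

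Clusters were runs of members with gaps under 1 Mb, KRT and KRTAP apart, and neighbours were genes within 500 kb. Named were a fixed panel (KRT1, KRT10, KRT5, KRT14, KRT7, KRT8, KRT18, KRT19, KRT34, KRT81, KRTAP1-5, KRTAP2-3, KRTAP5-1, KRTAP10-1, KRTAP13-1, KRTAP19-1), the 2 largest and 2 smallest ChIP over input differences of each cluster, and, where a contrast had no call, the 3 smallest p-values in each direction. Other genes were given as examples of their group, after their values were seen. Members, lists and rules were chosen with earlier results of these data known. Libraries were not paired by replicate letter in the main fits. Differences of A minus B correlated at 0.0004 to 0.015 between ChIP conditions and at 0.0092 to 0.108 between inputs. Counts per gene are low, so these correlations cannot show whether the letters mark shared preparation. Promoters came from RefSeq (GRCh38.p14), by symbol.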

Additional observations from a re-analysis of the deposited data

How the results depend on the processing

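For ChIP over input, 78 of 119 members were called higher and 11 lower, with a median of 0.52. The replicate block gave 90 calls, 78 higher and 12 lower, and a median of 0.52. It also gave 0 calls for genotype in 0.1% serum, with a median of -0.096, and 0 for serum in wild type, with a median of 0.023, and the replicate block changed no other count of calls. Medians moved with the scaling together with those of all genes. Library totals without TMM gave 0.76 (all genes 0.37), 1 window per gene 0.42 (0.091), the nearly empty library kept 0.41 (0.030) and DESeq2 0.45 (0.046), with 51 called higher. Peak table totals gave 0 higher and 118 lower and a median of -1.05 (all genes -1.42). The direction turned there for KRT1 (-0.68), KRT127P (-0.25), KRT14 (-0.94), KRT19 (-1.41), KRT25 (-0.65), KRT5 (-1.08), KRT7 (-1.31), KRT75 (-0.38), KRTAP10-8 (-0.66), KRTAP12-3 (-0.68), KRTAP13-1 (-0.62), KRTAP13-3 (-0.40), KRTAP19-1 (-0.82), KRTAP20-2 (-1.26), KRTAP24-1 (-0.38), KRTAP4-2 (-0.91), KRTAP4-3 (-1.46), KRTAP4-8 (-1.21), KRTAP5-10 (-0.91), KRTAP5-9 (-1.07) and KRTAP9-1 (-0.74), since this scale lowered the median of all genes. KRT8 turned to 0.0021 with 1 window per gene, where the window used lies away from the start region it shares with KRT18. Over 34 named genes and 748 values, 661 kept both direction and side of the threshold, 23 changed sign while not called in either fit, 12 lost a call, 30 gained one and 22 turned.

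Leaving out 1 library at a time gave 82 to 92 calls, 70 to 81 higher and 10 to 14 lower, and medians of 0.48 to 0.54 for ChIP over input. For genotype in 0.1% serum it gave 0 calls and medians of -0.12 to 0.019, with 0.019 without wild-type 0.1% ChIP replicate A and -0.047 without ΔLEO1 0.1% ChIP replicate B, so the sign of that median rests on a library. For serum in wild type it gave 0 calls and medians of -0.0049 to 0.049.

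For genotype in 0.1% serum, 1 window per gene, the nearly empty library kept and single windows each called 1, KRTAP10-5 or its window, and the peak regions gave 1 call with totals of the TSS table. Peak table totals gave a median of 0.20 (all genes 0.29). For serum in wild type the median was 0.15 with peak table totals (all genes 0.13) and -0.091 with the input difference taken off (all genes -0.068). The causes of these changes were not tested. Depth limits single genes: KRTAP10-5 held 8 to 39 reads in a 0.1% ChIP library. In counts simulated over all genes for genotype in 0.1% serum, a log2 change of 1 was called in 17 of 200 changed genes. A change of 2 was called in 164 of 200. For serum in wild type these counts were 28 and 177. Whether differences that miss the threshold with 2 libraries a group are absent was not tested.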
